A study of Mus musculus with 2 samples.

Results

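Transcription factors that steer progenitors towards monocytes or granulocytes were compared between stem and progenitor cells with and without TIF1γ (Trim33), a transcriptional regulator of the TIF1 family. The group comprised 8 genes, Spi1, Irf8, Irf4, Irf5, Egr2, Gfi1, Zeb2 and Nr4a1, and every probe set that the platform annotation assigns to 1 of them was taken. This gave 16 of the 34945 probe sets with a single annotated gene, and 8 of 18193 genes. Spi1, Gfi1 and Nr4a1 had 1 probe set each, Irf8, Irf4, Irf5 and Egr2 had 2, and Zeb2 had 5.

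The cells were KLS cells from mouse bone marrow, sorted as lineage-negative and positive for c-kit and Sca. RNA was hybridised to 1 Affymetrix array from wild type mice and to 1 array from mice in which TIF1γ had been conditionally inactivated (TIF1γ Δ/Δ), so every difference below lies between 2 arrays, with no replicate error and no test. The sources used here give neither the age of the mice, nor how many were pooled, nor the promoter that drove the inactivation. The precision of every value is limited by the number of arrays. Gapdh signal was stronger at the 3′ end of the transcript than at the 5′ end, by a ratio of 7.86 (wild type) or 7.38 (TIF1γ Δ/Δ). The actin ratio was 5.14 (wild type) or 5.54 (TIF1γ Δ/Δ). Whether this unevenness bears on the differences between a gene's own probe sets was not tested.

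PU.1, the ETS factor encoded by Spi1, is required for myeloid and B lymphoid development, and its dose influences the choice between granulocyte and macrophage fates. Irf8 binds DNA largely together with partners such as PU.1 and favours monocytes and dendritic cells over neutrophils. Egr2 and its NAB corepressors act on the macrophage side, where they oppose the granulocyte programme, and the zinc finger repressor Gfi1 acts on the granulocyte side, recruiting the demethylase Kdm1a and CoREST. Zeb2 is a zinc finger repressor used across monocyte, dendritic and lymphoid maturation, and the nuclear receptor Nr4a1 is needed for the patrolling, Ly6C-low monocyte.

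Irf8 was the member furthest apart on the arrays, and the sequence upstream of its annotated starts is given for that reason. The table of RefSeq promoters (GRCm38.p6) used here matched 7 of the 8 genes, all but Spi1. The 250 bases before each of the 2 Irf8 starts, on the plus strand, lie at chr8:120736108-120736357 and chr8:120738389-120738638. They are written from 5′ to 3′, and capitals mark the core motif of ETS factors such as PU.1, GGAA, or TTCC where it lies on the other strand.
Irf8 upstream, first start: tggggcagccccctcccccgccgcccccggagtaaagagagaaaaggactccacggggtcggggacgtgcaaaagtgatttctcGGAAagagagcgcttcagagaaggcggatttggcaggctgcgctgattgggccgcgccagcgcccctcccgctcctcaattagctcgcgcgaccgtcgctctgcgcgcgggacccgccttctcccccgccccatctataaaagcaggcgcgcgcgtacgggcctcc
Irf8 upstream, second start: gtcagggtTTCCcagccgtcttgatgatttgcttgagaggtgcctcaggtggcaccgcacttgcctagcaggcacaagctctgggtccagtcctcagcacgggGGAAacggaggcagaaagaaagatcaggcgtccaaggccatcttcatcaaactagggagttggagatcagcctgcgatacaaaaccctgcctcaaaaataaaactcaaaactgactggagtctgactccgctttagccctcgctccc
The first window held 1 GGAA, on the plus strand, beginning 166 bases before the start, and had a GC content of 67.2%. The second held 1 on the plus strand, beginning 147 bases before the start, and 1 on the minus strand, with a GC content of 54.0%. An ETS core of these 4 letters was present in 93.4% of 32851 promoter windows of the same length, with a median of 3 matches, so its presence does not single out Irf8. The GFI1 core AATC, searched on both strands, matched 3 times in the first window and 1 time in the second, against a median of 1, and 69.0% of all windows held it. Neither Irf8 window held GAAA followed after any 2 bases by GAAA, the interferon response type, nor GGAA followed after any 2 bases by GAAA, the composite that PU.1 and IRF factors bind together. Across all windows 2.98% and 2.30% held these, on either strand. Letter matches describe the windows and are not measured binding.

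Signals are deposited MAS5 intensities. The floor for calling a probe set measured was the array's median signal, 14.4 for wild type and 11.7 for TIF1γ Δ/Δ. Differences are log2 signal on the TIF1γ Δ/Δ array minus log2 signal on the wild type array, centred on the median of probe sets measured on both. Where 1 array was under its floor, the floor stood in and the fold is a lower bound. Each gene is represented by its brightest probe set, by mean log2 signal over both arrays.

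None of the 7 member genes with a fold was at least 2-fold apart by its brightest probe set. Over all genes with a fold, 8.76% were that far apart in either direction, 6.16% lower and 2.60% higher without TIF1γ, so a count of 0 among 7 is near the background. The members' differences ran from -0.84 for Irf8 to 0.23 for Nr4a1, with 4 below 0 and 3 above, at a median of -0.17 beside 0.017 over all 11439 genes with a fold. Irf4 had no fold. By probe set, 2 of the 14 with a fold were at least 2-fold lower, 1 of Irf8 and 1 of Zeb2, and none was 2-fold higher. The shares over all single-gene probe sets were 6.10% lower, 2.86% higher and 8.96% in either direction.

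**Figure D1:**
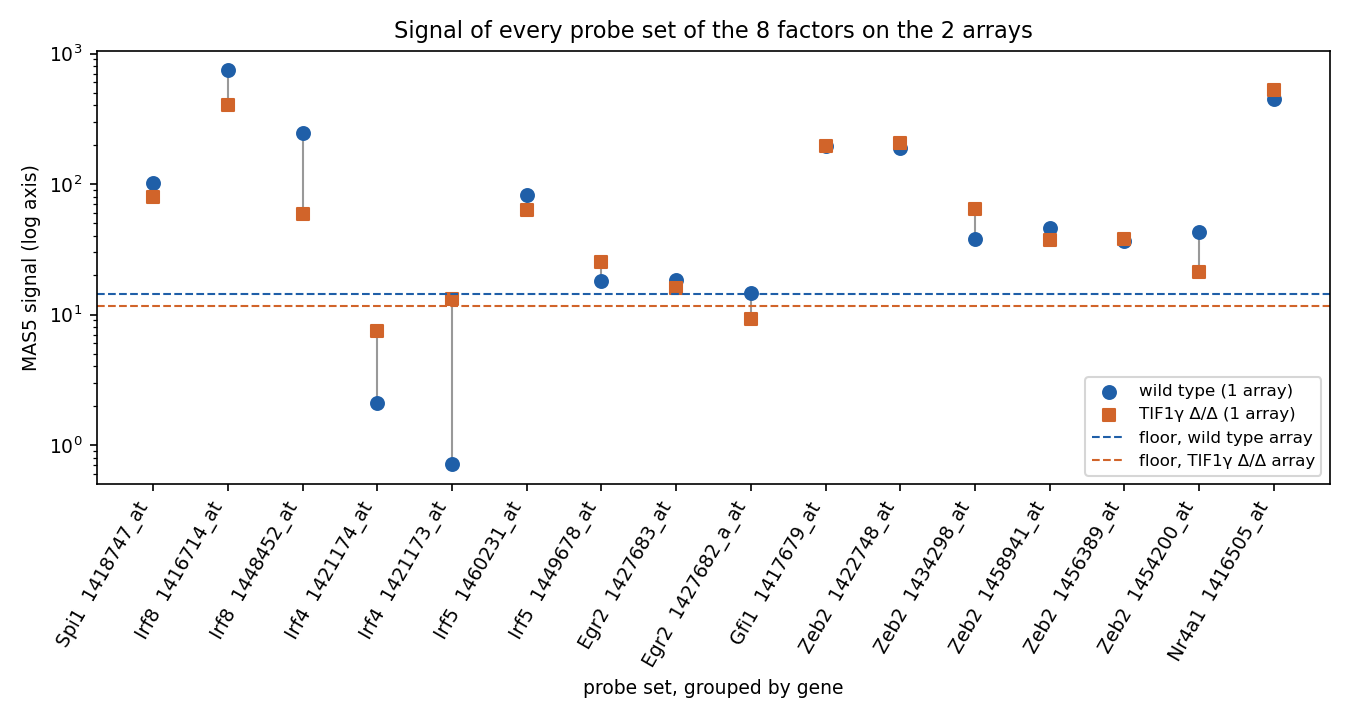
MAS5 signal (log axis) of each of the 16 probe sets on the wild type array (circles) and the TIF1γ Δ/Δ array (squares), with each array's floor as a dashed line. Both Irf8 squares lie below their circles, the Gfi1 symbols coincide at 194, and both Irf4 probe sets lie under the wild type floor.

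Spi1 signal was 101 in wild type and 79.6 in TIF1γ Δ/Δ cells. The difference was -0.32 on the log2 scale, or 1.25-fold lower, and 57.1% of all genes with a fold were at least as far apart in 1 direction or the other. A single probe set, 1418747_at, reported the gene, so no second probe set speaks to it.

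Irf8 was lower by both of its probe sets, but by unequal amounts. The brightest, 1416714_at, read 742 in wild type and 406 in TIF1γ Δ/Δ cells, a log2 difference of -0.84 or 1.80-fold lower. The other, 1448452_at, read 247 and 59.4, a log2 difference of -2.03 or 4.09-fold lower. The annotation ties both to the same sequence record, so they share a source. They lay 1.19 apart on the log2 scale, against a median of 0.35 over the 2753 genes with exactly 2 probe sets measured on both arrays, and 6.21% of those genes had probe sets at least that far apart. By its brightest probe set, 8.81% of all genes were as low as Irf8 or lower, and 9.08% of the 1190 genes of like mean signal (within 0.5 on the log2 scale) were as far apart in either direction. The mean of both probe sets put Irf8 past the 2-fold size, at -1.44, and it is the only member so placed.

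The lower Irf8 signal stood beside lower signal of mature myeloid markers on the same array, given further below, and their part in the difference was not tested. Fewer cells of a type in the sorted sample and less RNA per cell cannot be told apart in such bulk RNA.

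Irf5, an IRF factor of inflammatory macrophages, had probe sets that went opposite ways. The brightest, 1460231_at, read 81.9 in wild type and 63.2 in TIF1γ Δ/Δ cells (log2 -0.35), while 1449678_at, close to the floor, gave 17.9 and 25.3 (log2 0.52). With the mean of both, Irf5 was at 0.084, so no direction is given for it.

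Irf4, the closest relative of Irf8, which acts in dendritic, B and plasma cells, missed the wild type floor by both probe sets, at 2.09 for 1421174_at and 0.71 for 1421173_at. On the TIF1γ Δ/Δ array they gave 7.49 and 13.2, and only 1421173_at passed the floor there, by a small margin. These values allow no fold.

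**Figure D2:**
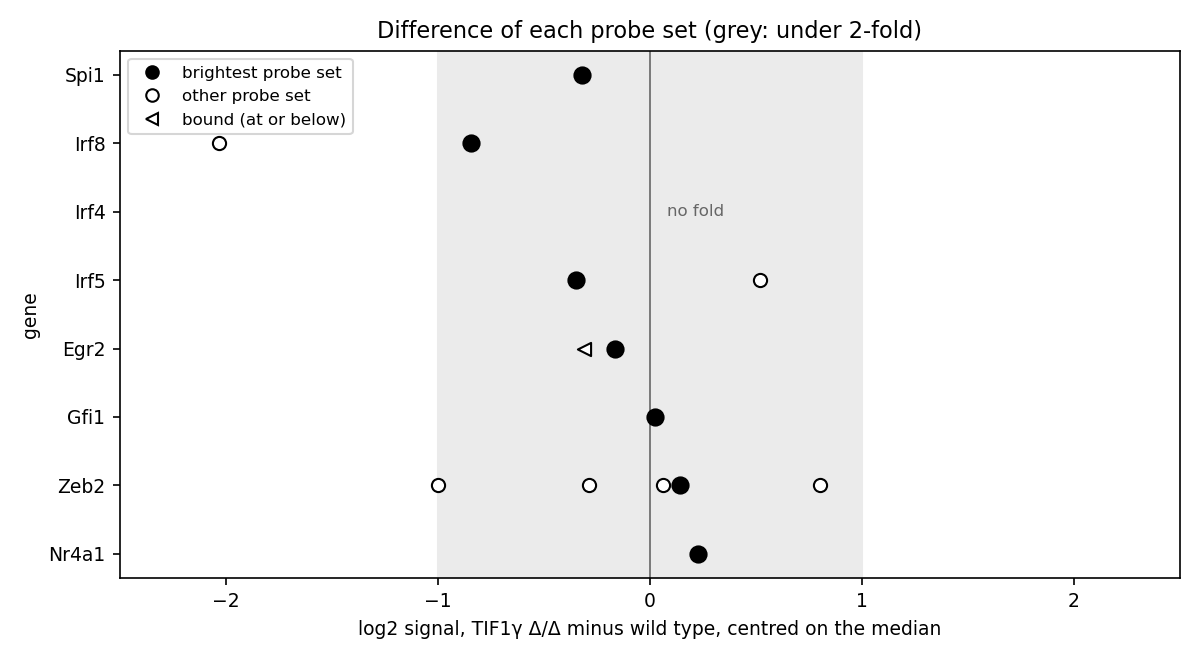
Log2 difference (TIF1γ Δ/Δ minus wild type, centred on the median) of each member probe set with a fold, by gene; filled points are the brightest probe set, open points the others, a triangle a bound, and the grey band is under 2-fold. All filled points lie inside the band, 1 open point of Irf8 lies at -2.03, and the 5 points of Zeb2 spread from -1.001 to 0.80.

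On the side of the opposing pair, Gfi1 gave 194 on both arrays. Its difference of 0.024 arises from the centring, and 96.5% of all genes were at least as far from 0. Egr2 was dim, with 18.3 in wild type and 16.01 in TIF1γ Δ/Δ cells by 1427683_at (log2 -0.17). The second Egr2 probe set, 1427682_a_at, gave 14.7 and 9.30, the latter under the floor, which makes it at least 1.24-fold lower. Egr2 turned to 0.11 under quantile and 0.083 under loess scaling, and Gfi1 turned to -0.065, -0.11 and -0.034 under quantile scaling, loess scaling and a higher floor.

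Zeb2 had 5 measured probe sets that disagreed. The brightest, 1422748_at, read 190 in wild type and 206 in TIF1γ Δ/Δ cells (log2 0.14). Of the others, 1434298_at gave 37.7 and 64.7 (log2 0.80) and 1456389_at gave 36.8 and 37.8 (log2 0.062), both above 0. In the other direction, 1458941_at gave 46.1 and 37.2 (log2 -0.29) and 1454200_at gave 42.8 and 21.0 (log2 -1.001). The last just reached 2-fold, and did not under quantile (-0.80) or loess (-0.86) scaling. The 5 spanned 1.80 on the log2 scale, against a median span of 1.04 over 153 genes with 5 such probe sets, and 13.1% of those spanned as much. With their mean, Zeb2 stood at -0.056, so the gene has no settled direction.

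Nr4a1, an immediate early gene as well as a monocyte factor, read 452 in wild type and 521 in TIF1γ Δ/Δ cells (1416505_at, log2 0.23, 1.17-fold higher). Of all genes, 68.6% were at least as far apart, and it was above 0 under each processing setting tried, from 0.12 to 0.32. Several of these settings only shift all members by 1 common amount or leave a gene with 1 probe set unchanged.

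With only 2 arrays, likeness to another gene is no more than a similar difference. Of 17 partner factors measured on both arrays, Batf (127 to 74.9, log2 -0.74), an AP-1 factor that pairs with IRF4 and IRF8, was nearest to Irf8, followed at a distance of 0.62 by the C/EBP factor Cebpb. Nearest to Spi1 and Irf5 were Cebpb (54.4 to 45.8, log2 -0.22) and the erythroid factor Gata1 (202 to 175, log2 -0.18), which were also nearest to Egr2. Gfi1 and Zeb2 were nearest to the AP-1 factor Fos (log2 0.13), with the ETS factor Fli1 (log2 -0.092) second for Gfi1 and the E protein Tcf4 (log2 0.25) second for Zeb2. For Nr4a1 the nearest were Tcf4 and the progenitor factor Myb (log2 0.28).

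Among the other IRF factors, 5 of 6 had a probe set and none was 2-fold apart, at a median of -0.22. Each of the 5 was read from a probe set whose name marks it as shared between transcripts, so the list has no value without such probe sets. Irf7, which amplifies the interferon response, gave 96.2 and 54.8 (log2 -0.79) and Irf9, the DNA-binding part of the ISGF3 complex, gave 190 and 121 (log2 -0.63). Irf1 (log2 -0.22), Irf3 (log2 -0.12) and Irf2 (log2 0.22) lay closer to 0. Both ETS factors most like PU.1 missed the floor without TIF1γ. Spic, a factor of red pulp and bone marrow macrophages, gave 90.5 and 8.48, at least 7.64-fold lower by a probe set shared between transcripts, and Spib gave 18.2 and 6.36, at least 1.54-fold lower.

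Among the EGR factors, Egr1 was bright at 2379 in wild type and 1707 in TIF1γ Δ/Δ cells (log2 -0.46), Egr3 was near the floor (19.0 and 24.8, log2 0.41), and Egr4 had no fold. A second Egr3 probe set, 1436329_at, went the other way (20.7 and 9.67, a log2 bound of -0.80), so Egr3 has no settled direction. The NAB corepressors, which bind EGR factors, were above 0, with Nab1 at 696 and 819 (log2 0.26) and Nab2 at 6.84 and 19.3, at least 1.36-fold higher. Nr4a2 (97.4 and 58.1, log2 -0.72, lower by all 5 probe sets with a fold) and Nr4a3 (15.3 and 4.65, at least 1.29-fold lower) lay opposite to Nr4a1. With the mean of its probe sets, Nr4a2 passed the 2-fold size, at -1.09. That mean uses signals without the floor and takes in 1433422_at, under the floor on both arrays (12.0 and 2.76). The probe sets with a fold ran from -0.48 to -1.07, so the 2-fold size of Nr4a2 is not settled.

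Partners of Gfi1, listed together with its paralog Gfi1b, were on average above 0 while Gfi1 was level. The median of 6 was 0.47, and none reached 2-fold. Kdm1a, the histone demethylase that GFI1 recruits, gave 425 and 657 (log2 0.65), its CoREST partner Rcor1 gave 256 and 384 (log2 0.61), and the H3K9 methyltransferase Ehmt2 gave 178 and 292 (log2 0.74). The deacetylases Hdac2 (log2 0.32) and Hdac1 (log2 -0.022) and the erythroid and megakaryocyte paralog Gfi1b (188 and 152, log2 -0.28) completed the list. Hdac2 was near level by 1449080_at (400 and 388, log2 -0.019) and above 0, as a bound near the floor, by 1439704_at (12.8 and 20.4). Kdm1a, Rcor1 and Hdac2 were read from probe sets shared between transcripts, and without such probe sets the median was 0.36 and 1 gene was at least 2-fold higher, Kdm1a by 1426761_at (73.2 and 176, log2 1.29). For Zeb2, the paralog Zeb1 (308 and 321, log2 0.085) and the corepressors Ctbp1 (log2 0.25) and Ctbp2 (log2 0.37) were under 2-fold apart. Zeb1 was near level by 1443005_at (21.4 and 21.6, log2 0.037) but just under 2-fold lower by 1446127_at (77.5 and 38.7, log2 -0.98).

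Several other lineage factors that work with the members passed the 2-fold size. Of 18 partner factors with a fold, 6 were at least 2-fold lower and 2 higher, at a median of -0.14. Over all genes with a fold, 6.16% were lower and 2.60% higher by that size. The dendritic and innate lymphoid factor Id2 (1046 to 207, log2 -2.31), the macrophage factor Maf (145 to 38.7, log2 -1.88), Cebpd (195 to 53.8, log2 -1.83), Batf3 (39.3 to 1.60, at least 3.31-fold) and Klf4, a factor of monocytes (276 to 85.5, log2 -1.67), were the 5 furthest apart. Bcl6 (log2 -1.53), Cebpa (24.4 to 63.1, log2 1.39) and Gata2 (182 to 472, log2 1.40), named after their values were seen, made up the rest of the 8. Cebpd had a second probe set, 1456605_at, that went the other way near the floor (12.6 and 15.3, a log2 bound of 0.11). The second Gata2 probe set, 1428816_a_at, had a similar wild type signal but a much smaller difference (175 and 193, log2 0.16). The size of the Gata2 difference is therefore not settled. With the mean of all probe sets, 5 of 17 partner factors were lower and 1 higher by this size, at a median of 0.094.

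**Figure D3:**
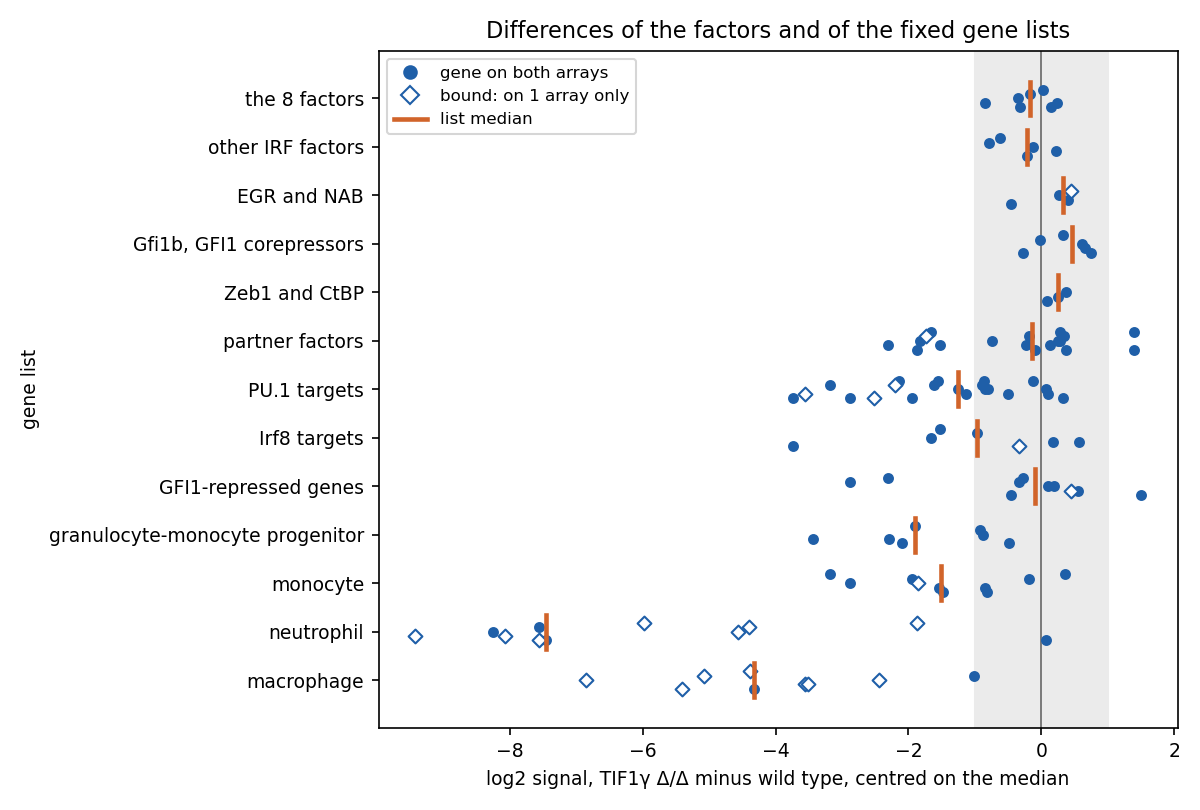
Log2 difference (TIF1γ Δ/Δ minus wild type, centred on the median) of each gene with a fold in the member list and in 12 other lists; open diamonds are bounds, orange bars are list medians, and the grey band is under 2-fold. The 7 members lie inside the band at a median of -0.17, whereas the PU.1 targets have a median of -1.25 and the neutrophil markers one of -7.46.

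Known PU.1 target genes were set beside Spi1. Of 23 listed, 22 had a probe set and 21 a fold. Lower by 2-fold or more were 12, and none was higher by as much, at a median of -1.25, while Spi1 itself stood at -0.32. That is 57.1% of the list, against the 6.16% lower over all genes. The list was chosen with earlier results of these data known, so this contrast is a description and not a test. The gp91phox subunit of the phagocyte oxidase, Cybb, gave 391 and 28.9 (log2 -3.74), the macrophage surface protein Adgre1 (F4/80) 140 and 8.38 (at least 11.8-fold), and the perforin-like Mpeg1 1325 and 144 (log2 -3.18). Csf1r, through which M-CSF acts, read 684 and 91.1 (log2 -2.88) and Aif1 gave 67.6 and 0.58 (at least 5.71-fold). The targets above 0, named after their values were seen, were the tyrosine kinase Btk (324 and 400, log2 0.33), the pan-leukocyte phosphatase Ptprc (log2 0.10) and the granulocyte colony-stimulating factor receptor Csf3r (163 and 168, log2 0.069). A second Ptprc probe set, 1440165_at, was below 0 (122 and 73.6, log2 -0.70), so the direction of Ptprc is not settled. Of the 21, 6 also stood in a list of cell type markers. Among these 6, 4 were at least 2-fold lower, as were 8 of the other 15. The marker lists are short, so a target outside them, such as Cybb of the phagocyte oxidase, can still be a mature myeloid gene. The split therefore does not separate PU.1 targets from cell content.

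Of 7 Irf8 target genes with a fold, 3 were lower by 2-fold or more and none was higher by as much. Their median was -0.98. Over all genes, 6.16% were that far lower and 2.60% that far higher. The 3 lower targets were Cybb, Klf4 and Bcl6 (78.0 to 26.6). Cystatin C, Cst3, gave 3150 and 1575, just under 2-fold at -0.98, and Pml stood at 0.56; both were named after their values were seen. The median moved to -0.48 under quantile and -0.50 under loess scaling, which added an eighth gene. With the floor at the 65th percentile it was -1.35, with 4 of 5 lower, and with the mean of all probe sets -1.497, with 2 of 4 lower.

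Genes that GFI1 is known to repress went both ways. Of 10 with a fold, 2 were at least 2-fold lower, Csf1r and Id2, and 1 higher, the cell cycle inhibitor Cdkn1a (171 to 476, 2.83-fold). The shares over all genes were 6.16% lower and 2.60% higher. The list had a median of -0.093. With the mean of all probe sets the median was -0.39 and none of 9 was 2-fold higher. Beside a Gfi1 signal of 194 on both arrays, granulocyte-monocyte progenitor genes had a median of -1.91. Of their 7 genes, 4 were lower by 2-fold or more, beside the 6.16% over all genes. They were Ly86 (log2 -3.43), neutrophil elastase Elane (611 to 123, log2 -2.29), Fcgr3 (log2 -2.10) and Ms4a3 (log2 -1.91). The brightest of the list, named after their values were seen, were lower by less than 2-fold. They were Mpo (5497 to 3840, log2 -0.49), Ctsg (4519 to 2350, log2 -0.92) and Prtn3 (3206 to 1710, log2 -0.88).

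Markers of mature myeloid and erythroid cells were lower too, and their part in the differences of Irf8, the partner factors and the target lists was not tested. Over all genes, 6.16% were at least 2-fold lower. For neutrophils, 10 of 11 markers with a fold were at least 2-fold lower. Their summed signal was 34217 in wild type and 309 in TIF1γ Δ/Δ cells, and S100a9, Ltf and Lcn2 lay under the floor in the latter. For macrophages, 9 of 9 were lower (summed signal 3317 and 137), and Adgre1, Vcam1 and C1qa lay under that floor. For monocytes, 6 of 10 were lower (7507 and 3363), with Ccr2 at 263 and 93.0 and Cx3cr1, which marks the patrolling subset, at 28.5 and 24.6. Dendritic markers were lower in 5 of 8 (7192 and 1533) and in 2 of 5 without probe sets shared between transcripts, which moved their median from -2.07 to -0.96; Siglech lay under the floor on both arrays. Erythroid markers were lower in 6 of 6 (1514 and 276). Of B and plasma cell markers 1 of 4 was lower (6745 and 6719) and of T and NK cell markers 3 of 6 (1594 and 1197), with Cd79a and Cd3e under the floor on both arrays and Ms4a1 and Gzma under it without TIF1γ, as was the erythroid Alas2. Most of the B and plasma sum came from Jchain (4346 and 4440) and Xbp1 (2042 and 2118). Nkg7 (1249 and 1090) made up most of the T and NK sum. These 2 sums therefore say little about the other lymphoid markers. No marker was listed at exactly 0. Stem and progenitor markers had a median of 0.31, with 5 of 6 above 0. Among them, Kit, which defines the sort, gave 384 and 495 (log2 0.39), Tek was 2.02-fold higher (20.1 and 39.99, close to the floor) and Procr was below 0 (486 and 316, log2 -0.60), while Ly6a had no probe set of its own. The dimmer Kit probe set, 1415900_a_at, read 33.9 and 73.5 (log2 1.14), past the 2-fold size, so the size of the Kit difference is not settled. The targeted gene, Trim33, was 2.17-fold lower by 1426954_at (379 and 172) and lower by 1 other measured probe set, a limited check of the labels since no source used here gives the deleted part.

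**Figure D4:**
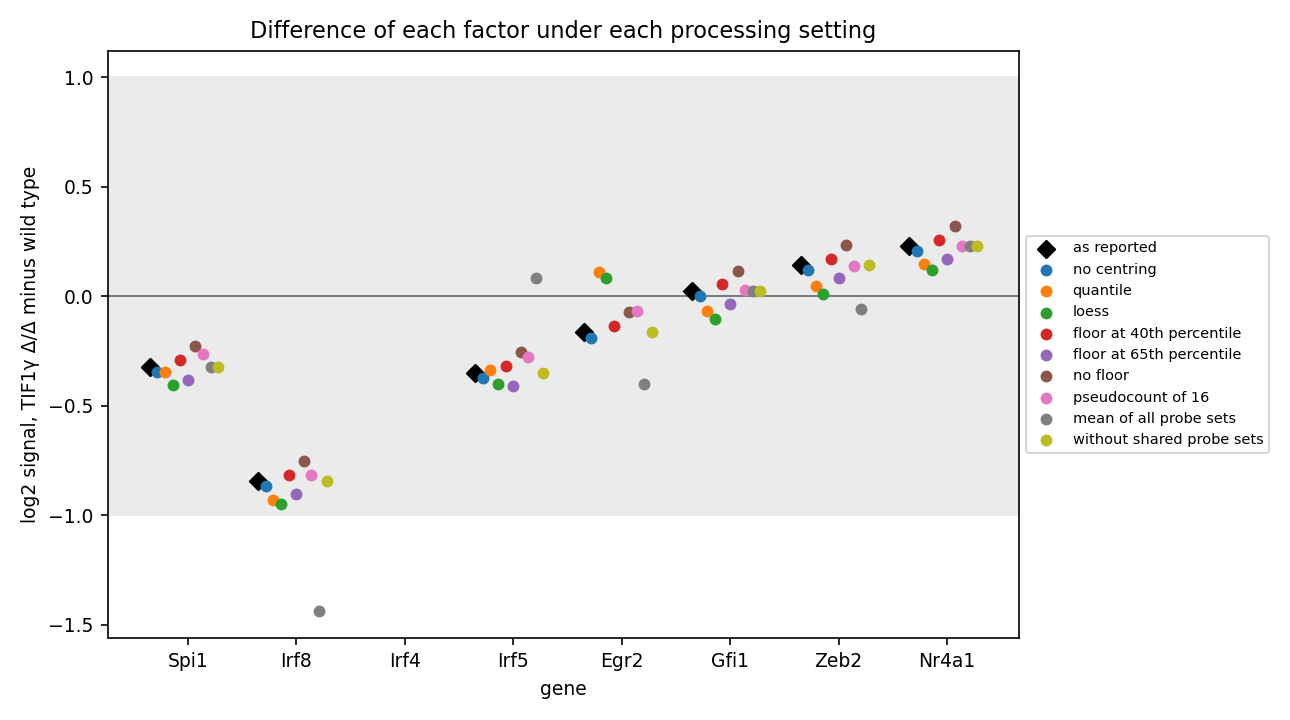
Log2 difference (TIF1γ Δ/Δ minus wild type) of each member gene as reported (black diamonds) and under 9 other processing settings (coloured points); the grey band is under 2-fold and Irf4 has no reported value. Spi1 and Irf8 are below 0 and Nr4a1 is above 0 under each setting, while Irf5, Egr2, Gfi1 and Zeb2 have values on both sides, and Irf8 leaves the band, at -1.44, with the mean of all probe sets.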

How the data were processed

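Per the submitters' processing notes, the authors ran MAS5, and the deposited table holds its linear intensity for each probe set; no source used here gives the version, a filter or detection calls. Each array has a mean of 100 once 2% of its 45101 values are trimmed at each end, which shows scaling per array. Dim values are noisy, as mismatch signal is subtracted. The 64 control probe sets were left out. Genes came from the platform annotation (34945 probe sets with a single gene, 932 with several, 9160 with none), with 34741 updated by Entrez identifier to RefSeq symbols. The floor was the 50th percentile of each array, the centring shift was -0.024, and a count used a size of 2-fold, with no test. Genes measured on 1 array entered a list's count and median only where the bound had a direction.

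The named genes were the 8 members with all their probe sets, all paralogs and corepressors, and up to 5 genes at least 2-fold apart in each other list. Members and lists were chosen with earlier results of these data known. The alternatives covered scaling, floor, a pseudocount of 16, the probe set rule and the size. The mean of all probe sets was taken before the floor was applied, so probe sets under the floor count in it. The comparison was checked on simulated data, made from the wild type array by changing bright genes only, each by more than 2-fold. The added scatter was less than that among a gene's own probe sets. The check does not cover dim genes or differences under 2-fold. Python 3.11.15, numpy 2.4.6, pandas 2.3.3, statsmodels 0.14.6 (loess) and matplotlib 3.10.9 were used.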

Additional observations from a re-analysis of the deposited data

How the results depend on the processing

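Of 93 values recomputed under the alternatives, 89 moved by less than the scatter among a gene's own probe sets (SD 0.44 on the log2 scale over 4534 genes) or, for counts, by less than 1.5 times, and 4 moved further. With the mean of all probe sets, Irf8 was at -1.44 and 1 member gene was at least 2-fold lower, since the second Irf8 probe set then counts. At 1.5-fold, 1 member gene, Irf8, was lower. Without a floor, 1 member gene was at least 2-fold higher. It was Irf4, at 1.96, from signals that were under the floor on both arrays, and with a pseudocount of 16 it stood at 0.41. No member was called under quantile or loess scaling, without centring or at 3-fold. The members' median lay between -0.21 and 0.023. Spi1 (-0.41 to -0.23), Irf8 (-1.44 to -0.75) and Nr4a1 (0.12 to 0.32) kept their sign under each alternative, and Irf5, Egr2, Gfi1 and Zeb2 did not. For members measured on both arrays, the floor and centring settings only shift all differences by 1 common amount. Dropping shared probe sets changed no member, and the mean over probe sets cannot change Spi1, Gfi1 or Nr4a1. Many of the 93 values were therefore bound to move little, and a kept sign under these settings says little. Egr2 gave no value with the floor at the 65th percentile. No value rests on more than 1 array per genotype, so neither leaving out a replicate nor a paired fit was possible, and signal near the floor limits Egr2, Irf4 and the dimmer Irf5 probe set.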
